A study of Caenorhabditis elegans with 6 samples.

Results

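The small heat shock proteins of Caenorhabditis elegans were followed here through 10 genes, taken by gene symbol from a table of 46589 genes: hsp-12.1, hsp-12.2, hsp-12.3, hsp-12.6, hsp-16.2, hsp-16.41, hsp-16.48, hsp-25, hsp-43 and sip-1. RNA of whole animals of the wild-type strain Bristol N2 was sequenced in 6 libraries, of which 3 are labelled bcat-1 RNAi and 3 are labelled control, all from adults 5 days after the L4 larval stage. RNA interference was given by feeding E. coli HT115 that make double-stranded RNA, from young adulthood onwards, with daily washing to take away progeny. The labels call the other animals only control, and the methods name the empty feeding vector L4440. The gene bcat-1 encodes the transaminase that opens the breakdown of leucine, isoleucine and valine. The comparison asked how the transcripts of this chaperone family differ after RNAi against bcat-1, in a study in which the heat shock factor HSF-1 was tested genetically.

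Small heat shock proteins are chaperones with a shared alpha-crystallin domain. They bind unfolding proteins without using ATP and hold them until the Hsp70 machinery can refold them. In the nematode the hsp-16 genes are the classic inducible branch, raised by heat through HSF-1, whereas sip-1, hsp-25 and hsp-43 are made without stress. The hsp-12 proteins are unusually short and have shown little chaperone activity in the test tube. Several family members, hsp-12.6, sip-1 and hsp-16 genes among them, are known targets of HSF-1 and the FoxO factor DAF-16.

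Library totals ran from 32784443 to 44137496 counted reads, and 24092 to 24418 genes had a read under the bcat-1 RNAi label, against 19961 to 21381 genes under the control label. The transcript of bcat-1 itself had 223, 102 and 287 CPM under the bcat-1 RNAi label, against 135, 135 and 162 CPM under the control label. CPM are counts per 1000000 counted reads, with library sizes scaled by TMM, a trimmed mean of log ratios. Its log2 difference was 0.50 ± 0.30 (standard error; quasi-likelihood test of edgeR, p adjusted by Benjamini-Hochberg = 0.169), and without bcat-1 RNAi replicate 2 it was 0.79 (adjusted p = 0.00291). The target was thus not lower under its own RNAi label. Whether reads of the fed bcat-1 RNA were counted with those of the animals, and whether labels were exchanged, was not tested, and every direction below is that of the bcat-1 RNAi label over the control label. Nothing in the labels says that the libraries come from separate cultures, so p-values describe the spread between these libraries, which may be technical.

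Of the 10 genes, all of which passed the filter on low counts, 3 were called higher under the bcat-1 RNAi label (hsp-12.6, hsp-12.3 and hsp-12.2), 1 was called lower (sip-1) and 6 did not pass the test. Calls were made at adjusted p values below 0.05. Among all 16391 tested genes 36% were called higher and 25.6% lower, so the count of 3 is near the background and the count of 1 is below it. In TMM-scaled CPM the groups were free of overlap in 3 members (hsp-12.6, hsp-12.3 and sip-1), against 71.2% of all tested genes. The median log2 fold change was 0.29 over the 10 genes and 0.15 over all tested genes. With other scalings the median of all genes moved to 0.024 (DESeq2 size factors), 0.28 (upper quartile) or 0.40 (library size only), and the share of calls that were higher moved from 58.5% to 51.7%, 69.3% and 79% in that order. Without control replicate 1 and bcat-1 RNAi replicate 3, a setting taken from earlier results of these data, 4 members were higher (hsp-12.1, hsp-12.3, hsp-12.6 and hsp-25) and 2 were lower (sip-1 and hsp-16.41). Among all 16465 genes tested in that setting, 5341 were called higher and 4191 lower.

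**Figure D1:**
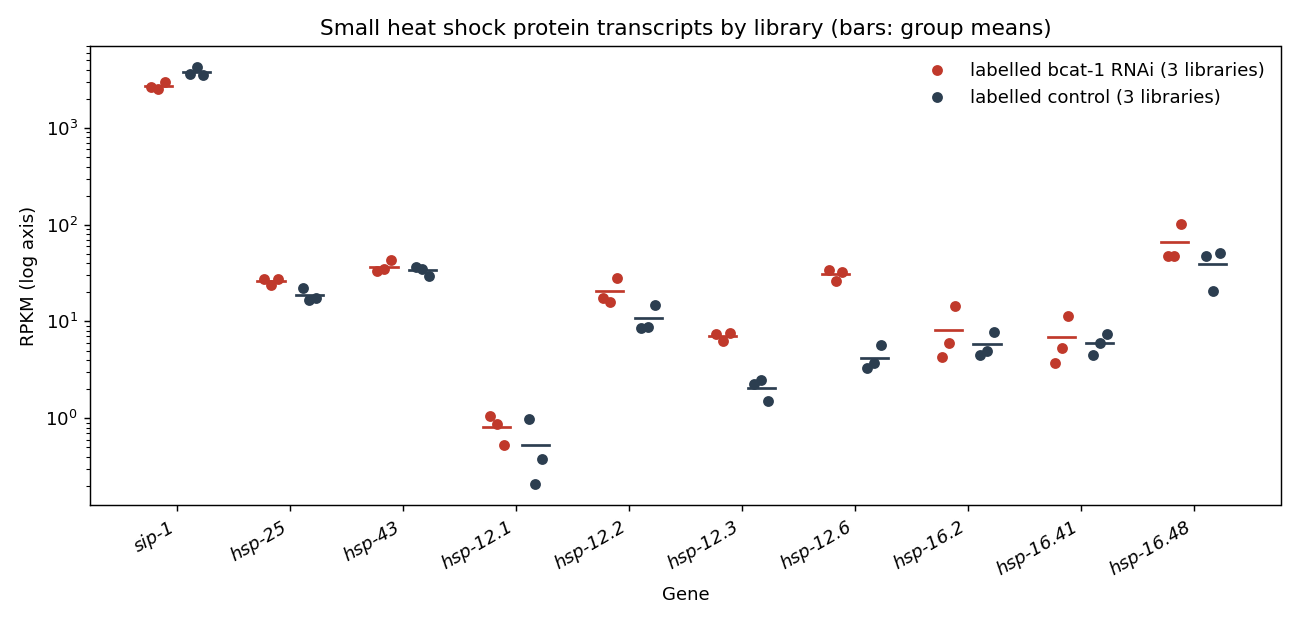
RPKM of the 10 genes (log axis) in each library, with libraries labelled bcat-1 RNAi in red on the left of each pair and those labelled control in dark blue on the right. Points are single libraries and bars are group means of 3. The family spans sip-1, at a mean of 2733 RPKM for bcat-1 RNAi and 3796 RPKM for control, down to hsp-12.1, at 0.813 RPKM for bcat-1 RNAi and 0.525 RPKM for control. On this scale, which is not TMM-scaled, the groups do not overlap for hsp-12.6, hsp-12.3, hsp-12.2, hsp-25 and sip-1. The share of all tested genes without overlap on this scale was not counted. With library size only, the median log2 fold change of all tested genes was 0.395, and 79% of calls were higher.

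Levels were compared between genes as RPKM, reads per kilobase of exon and per 1000000 counted reads, which are not TMM-scaled. One gene, sip-1, held 91.8% to 93.9% of the summed RPKM of the 10 members under the bcat-1 RNAi label and 96.3% to 97.8% under the control label. Next came hsp-16.48, with a mean of 65.7 ± 31.7 RPKM under the bcat-1 RNAi label and 39.5 ± 16.3 RPKM under the control label (SD, n = 3 each). At the bottom stood hsp-12.1 in both groups. Under the bcat-1 RNAi label hsp-43, hsp-12.6, hsp-25 and hsp-12.2 followed in that order with ranges that overlapped from each to the next. Under the control label the gene hsp-12.6 stood in place 8 of 10 by mean level, between hsp-16.2, whose range overlapped its own, and hsp-12.3, whose range did not. Under the bcat-1 RNAi label it stood in place 4. The remaining members with sip-1 left out summed to 176, 166 and 268 RPKM under the bcat-1 RNAi label, against 130, 98.6 and 135 RPKM under the control label, so on this unscaled measure the groups did not overlap.

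The largest change in the family was that of hsp-12.6, a short member known as a DAF-16 and HSF-1 target. Its level was 11.8, 8.94 and 10.4 CPM under the bcat-1 RNAi label, against 1.29, 1.53 and 2.19 CPM under the control label. The lowest library of the first group thus lay far above the highest of the second. The fold change was 6.20 (log2 2.63 ± 0.22, standard error, edgeR adjusted p = 2.36e-05), and it was called with the same direction under all 17 alternative settings (log2 2.45 to 2.88). Among genes of like level (4.16 to 9.09 CPM), 47.3% were called higher, with a median log2 fold change of 0.41. The gene (F38E11.2) lies on the minus strand of chromosome IV from 9446229 to 9447228 in WBcel235 with 3 exons, and its fold change stood at the 94.98 percentile of all tested genes.

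Its neighbour hsp-12.3 (F38E11.1, chromosome IV from 9444791 to 9445507), another short family member, lies 721 bases further along on the same strand and also rose. It had 3.44, 2.81 and 3.22 CPM under the bcat-1 RNAi label, against 1.16, 1.35 and 0.773 CPM under the control label. The groups did not overlap, and the fold change was 2.90 (log2 1.54 ± 0.23, edgeR adjusted p = 0.000598), again called under all 17 alternatives. Among genes of like level (1.93 to 4.16 CPM), 53.3% were called higher, with a median log2 fold change of 0.61. The ratio between these neighbours was also compared. The RPKM of hsp-12.6 was 4.56, 4.24 and 4.30 times that of hsp-12.3 under the bcat-1 RNAi label, against 1.47, 1.503 and 3.78 times under the control label. The mean log2 ratio was 2.13 ± 0.06 and 1.02 ± 0.78 (SD, n = 3 each, exact permutation test, two-sided, p = 0.1, the smallest that 3 libraries against 3 allow, and 0.1 after adjustment over the 2 pairs tested). Control replicate 3 had the highest hsp-12.6 and the lowest hsp-12.3 of its group, and without it the log2 difference of the ratio was 1.55 in place of 1.10.

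The third gene called higher was hsp-12.2 (C14B9.1, chromosome III from 8138077 to 8139631, plus strand), with 8.48, 7.52 and 12.33 CPM under the bcat-1 RNAi label, against 4.66, 5.06 and 7.99 CPM under the control label. Here the groups overlapped in CPM, since control replicate 3 lay above bcat-1 RNAi replicate 2, whereas in RPKM, without TMM scaling, they did not. The log2 fold change was 0.68 ± 0.25 (edgeR adjusted p = 0.041), and the call was lost without bcat-1 RNAi replicate 1 or 3 and without control replicate 1 or 2 (log2 0.72, 0.45, 0.51 and 0.57, adjusted p = 0.062, 0.145, 0.131 and 0.157), and with DESeq2 size factors (adjusted p = 0.0560). Exons of hsp-12.2 overlap C14B9.8 on the other strand, which had up to 4720 reads in a library and was itself called lower (log2 −0.44, edgeR adjusted p = 0.0112), and without strand the reads of the overlap cannot be told apart. The fourth short gene, hsp-12.1 (T22A3.2, chromosome I), had 19, 17 and 9 reads under the bcat-1 RNAi label, against 19, 3 and 7 reads under the control label. At such counts only large differences can be seen, and its log2 value of 0.34 ± 0.51 was not called (edgeR adjusted p = 0.576). Without control replicate 1 and bcat-1 RNAi replicate 3 it was 1.45 and called (adjusted p = 0.0286).

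**Figure D2:**
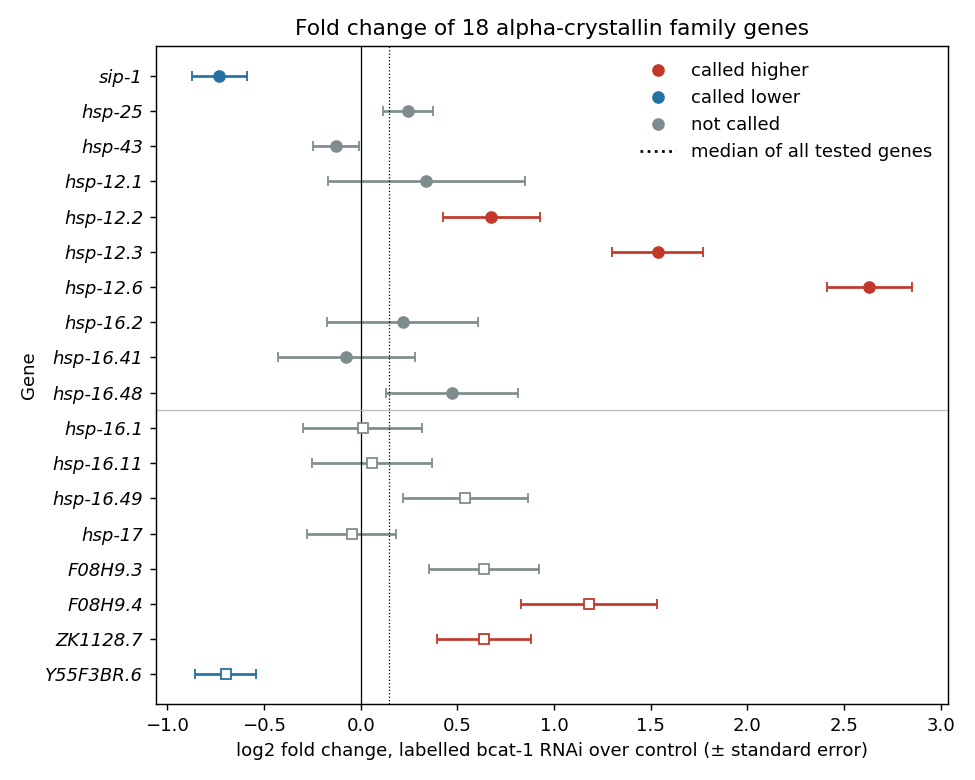
Log2 fold change of the bcat-1 RNAi label over the control label for the 10 members (filled circles) and 8 further alpha-crystallin family genes (open squares), with standard errors from the edgeR fit of 3 libraries against 3. Red is called higher, blue called lower and grey not called, and the dotted line is the median of all tested genes (0.15). Values run from −0.73 for sip-1 to 2.63 for hsp-12.6, and none of the 6 hsp-16 genes is called.

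The one fall was that of the most abundant member. The gene sip-1 (F43D9.4, chromosome III from 10506106 to 10506801, minus strand) encodes a small heat shock protein that is made without stress in oocytes and embryos. It had 1624, 1516 and 1668 CPM under the bcat-1 RNAi label, against 2463, 3123 and 2389 CPM under the control label. The groups were well apart, and the log2 fold change was −0.73 ± 0.14 (edgeR adjusted p = 0.00233). It was called lower under all 17 alternatives (log2 −0.86 to −0.47). Of all counted reads, sip-1 took 0.170%, 0.163% and 0.192% under the bcat-1 RNAi label, against 0.230%, 0.275% and 0.224% under the control label.

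Oocyte and early embryo transcripts moved with sip-1. All 15 of 15 listed markers were called lower (median log2 −0.85), against 25.6% of all tested genes. Their mean levels lie in deciles 9 and 10 of level (80.8 CPM and above). In these deciles 62.7% and 65.1% of tested genes were called lower, with median log2 values of −0.335 and −0.397. The 15 markers summed to 10930 to 12410 CPM under the bcat-1 RNAi label and 19740 to 24870 CPM under the control label. Set against that sum, sip-1 stood at 13.1%, 12.5% and 15.3% under the bcat-1 RNAi label and at 11.7% to 12.56% under the control label, and the ranges overlap. None of the 15 markers was at 0 in any library. Of 8 markers of the zygotic embryo 5 were tested, of which 3 were called lower and 1 higher, and med-1 was at 0 in at least 1 library. In RNA from whole animals, fewer cells of a type and less RNA per cell cannot be told apart, and the part of germ line and embryo content in the value of sip-1 was not tested. In the highest decile of level, which holds sip-1 (151 CPM and above), 65.1% of all tested genes were called lower (median log2 −0.40).

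**Figure D3:**
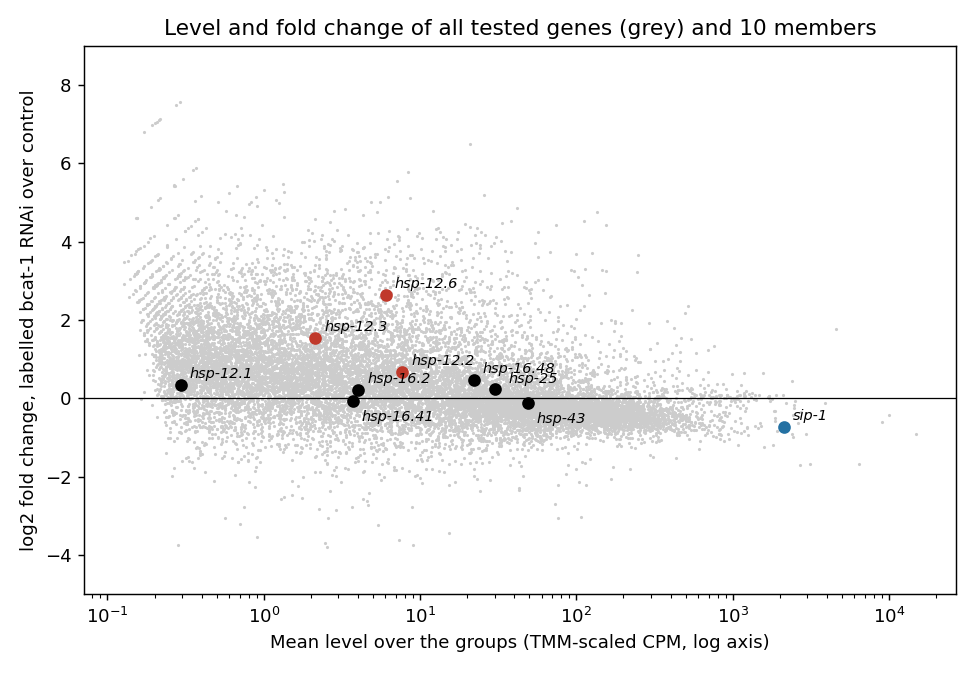
Mean level over the groups (TMM-scaled CPM, log axis) against the log2 fold change of the bcat-1 RNAi label over the control label, for all 16391 tested genes (grey) and the 10 members (red called higher, blue called lower, black not called). Weak genes lie mostly above 0 and strong genes below it, and hsp-12.6 and sip-1 sit on opposite sides of 0, at 2.63 and −0.73.

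Most of the listed neuronal and epidermal markers moved with the hsp-12 genes that were called higher. Of 10 neuronal markers 9 were called higher (median log2 1.17), against 36% of all tested genes. Their summed level was 551 to 597 CPM under the bcat-1 RNAi label and 375 to 404 CPM under the control label. Of 6 epidermal collagen markers 5 were called higher (median log2 3.07), with 223 to 264 CPM under the bcat-1 RNAi label and 54.3 to 92.9 CPM under the control label, and none of the 16 markers was at 0 in any library. The remaining epidermal marker, the adult collagen col-19, was not called (edgeR adjusted p = 0.0779). This list of 6 gave 5 called higher and 1 called lower with DESeq2 size factors, with limma-voom and with no filter on low counts. The same counts were found without bcat-1 RNAi replicate 3, and without it and control replicate 1 together. Body wall muscle and intestine gave mixed calls, with 1 higher and 5 lower of 8, and 2 higher and 2 lower of 7. The part of these tissues in the values of hsp-12.6 and hsp-12.3 was not tested. Over the 6 libraries, the tested genes whose profile of log2 CPM lay nearest to that of hsp-12.6 were hhat-1, C34D4.1 and ZK54.3 (Euclidean distances 0.31, 0.31 and 0.40 after centring each gene). For hsp-12.3 they were lgc-31, W01A8.7 and arrd-23 (0.21, 0.27 and 0.28), and hsp-12.6 was not among them. Such a distance grows with a difference in fold size, so it does not compare the shape of the profiles alone.

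For the inducible hsp-16 genes the groups overlapped and none was called. In hsp-16.2 (Y46H3A.3, chromosome V from 1804334 to 1804957), whose promoter is widely used as a heat shock reporter, the level was 2.39, 3.28 and 7.35 CPM under the bcat-1 RNAi label, against 2.87, 3.36 and 4.95 CPM under the control label. Both the lowest and the highest value of the 6 belonged to the bcat-1 RNAi label. The log2 fold change of 0.22 ± 0.39 was not called (edgeR adjusted p = 0.642), and it turned to −0.37 without bcat-1 RNAi replicate 3 (adjusted p = 0.275).

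Its partner hsp-16.41 (Y46H3A.2, chromosome V from 1805178 to 1805875) starts 220 bases away and is read in the opposite direction, so the pair shares 1 intergenic region. It had 2.07, 2.92 and 5.83 CPM under the bcat-1 RNAi label, against 2.82, 3.99 and 4.59 CPM under the control label. Again replicate 3 of the bcat-1 RNAi label was the highest and its replicate 1 the lowest. The log2 value of −0.07 ± 0.36 was not called (edgeR adjusted p = 0.865), and its sign turned with upper quartile scaling and library size only (0.080 and 0.20), while without control replicate 1 and bcat-1 RNAi replicate 3 together it was −0.75 and called (adjusted p = 0.0323). The RPKM of hsp-16.2 over hsp-16.41 was 1.14, 1.11 and 1.25 under the bcat-1 RNAi label and 1.01, 0.834 and 1.07 under the control label. These ratios did not overlap, with a log2 difference of 0.27 (exact permutation test, two-sided, n = 3 each, p = 0.1, the smallest possible, and 0.1 after adjustment over 2 pairs).

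The second hsp-16 locus lies on the same chromosome and holds 2 divergent pairs in an inverted arrangement, hsp-16.1 with hsp-16.48 and hsp-16.49 with hsp-16.11. The member hsp-16.48 (T27E4.3, chromosome V from 9088131 to 9088617, plus strand) had 19.7, 18.9 and 38.5 CPM under the bcat-1 RNAi label, against 21.8, 10.2 and 23.3 CPM under the control label. Most values lay near 20 CPM, with control replicate 2 low and bcat-1 RNAi replicate 3 high. The log2 fold change was 0.47 ± 0.34 (edgeR adjusted p = 0.248), and it was 0.077 without bcat-1 RNAi replicate 3 and 0.17 without control replicate 2. With the counts of hsp-16.48 and hsp-16.49 summed into 1 feature the value was 0.51 (edgeR adjusted p = 0.202).

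**Figure D4:**
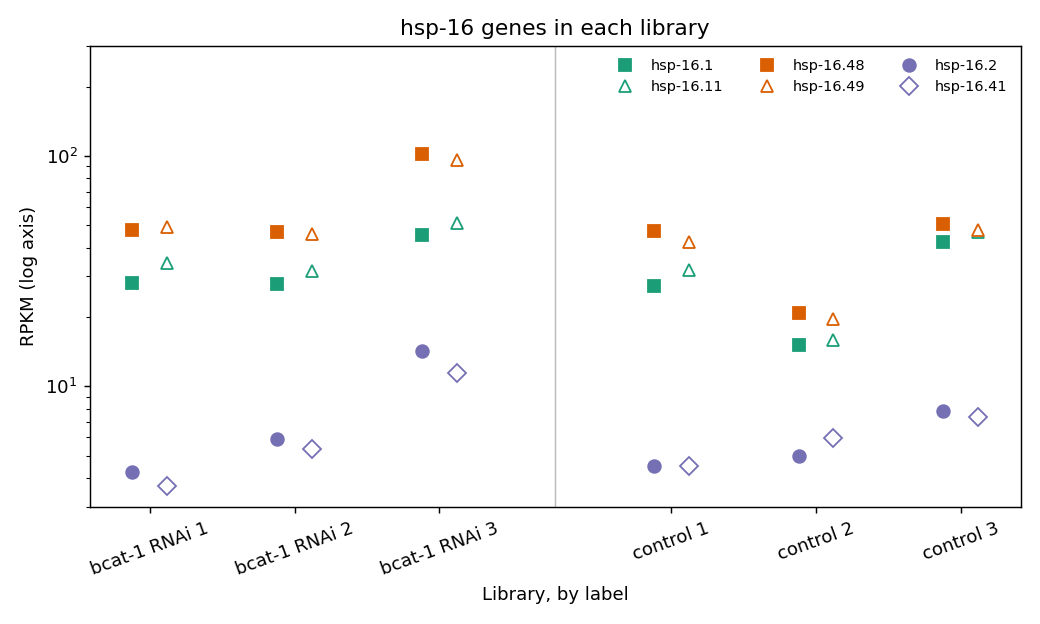
RPKM of the 6 hsp-16 genes (log axis) in each library, with the 3 libraries labelled bcat-1 RNAi on the left and the 3 labelled control on the right. Colours mark hsp-16.1 with its copy hsp-16.11 (green), hsp-16.48 with its copy hsp-16.49 (orange) and the pair hsp-16.2 and hsp-16.41 (violet). Replicate 3 of bcat-1 RNAi is highest for all 6 genes on this scale, control replicate 2 is lowest for the 4 genes of the second locus, and bcat-1 RNAi replicate 1 is lowest for the violet pair.

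The genes hsp-16.48 and hsp-16.49, and likewise hsp-16.1 and hsp-16.11, are known as near-identical copies, which limits what a count means. Of the reads on hsp-16.48 and hsp-16.49 together, hsp-16.48 took 49.4% to 52.7% over the 6 libraries, with equal counted exon lengths of 432 bases, and the 95% exact binomial (Clopper-Pearson) interval held 50% in 5 of 6 libraries. The exception was control replicate 1, at 52.7% (50.3 to 55.1). Of the reads on hsp-16.1 and hsp-16.11, hsp-16.1 took 42.9% to 46.6%, where its counted length was 47.9% of the sum (438 and 476 bases). Here the interval held 50%, and likewise the length share, in 1 of 6 libraries, control replicate 2 (42.0 to 51.2), so hsp-16.1 had fewer reads than hsp-16.11 beyond counting error in the others, with 504 against 670 reads in bcat-1 RNAi replicate 1. These intervals cover counting error only. Both copies of each pair thus carried many reads in every library, although the methods state that uniquely mapped reads alone were counted. Whether a read came from one copy or the other cannot be told from these counts. Values of single copies are therefore uncertain. Their sum does not depend on how reads were split between the copies. It would still be too low if reads that fit both copies were left out, which was not tested.

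Between the loci the levels differed widely. The 4 genes of the second locus summed to 159, 153 and 295 RPKM under the bcat-1 RNAi label, against 149, 71.5 and 187 RPKM under the control label. The pair hsp-16.2 and hsp-16.41 summed to 7.95, 11.3 and 25.7 RPKM under the bcat-1 RNAi label, against 9.03, 10.99 and 15.2 RPKM under the control label. The second locus was thus the more abundant in every library, by 20.1, 13.5 and 11.5 times under the bcat-1 RNAi label and by 16.47, 6.51 and 12.32 times under the control label. Replicate 3 of the bcat-1 RNAi label was the highest library for all 6 hsp-16 genes in RPKM. In TMM-scaled CPM it was highest for 4 of them, and control replicate 3 was highest for hsp-16.1 and hsp-16.11.

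The constitutive genes hsp-25 and hsp-43 did not pass the test. The gene hsp-25 (C09B8.6, chromosome X from 6034463 to 6039644, minus strand), found in muscle, had 35.5, 30.4 and 32.8 CPM under the bcat-1 RNAi label, against 32.3, 25.9 and 25.04 CPM under the control label. Only control replicate 1 reached into the range of the other group in CPM, whereas in RPKM, without TMM scaling, the groups did not overlap. The log2 value of 0.24 ± 0.13 was not called (edgeR adjusted p = 0.121), but it was 0.35 with an adjusted p of 0.0429 without control replicate 1, and it was called with upper quartile scaling and library size only (log2 0.38 and 0.49, adjusted p = 0.0323 and 0.0134). Exons of hsp-25 overlap ipp-5 on the other strand, which had up to 656 reads.

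In hsp-43 (C14F11.5, chromosome X from 6233151 to 6235543, minus strand), a constitutive member, the level was 43.5, 44.7 and 51.9 CPM under the bcat-1 RNAi label, against 54.02, 54.8 and 44.0 CPM under the control label. The ranges overlapped, and control replicate 3 lay below 2 of the bcat-1 RNAi libraries. The log2 value was −0.13 ± 0.12 (edgeR adjusted p = 0.377), and its sign turned with upper quartile scaling and library size only (0.018 and 0.13).

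Of 8 further genes of the alpha-crystallin family 2 were called higher, 1 lower and 5 did not pass the test (median log2 0.30). The shares over all tested genes were 36% higher and 25.6% lower. Without control replicate 1 and bcat-1 RNAi replicate 3 none was higher and 1 was lower. The gene Y55F3BR.6 fell, with 24.9, 26.9 and 17.4 CPM under the bcat-1 RNAi label, against 37.3, 39.7 and 35.3 CPM under the control label (log2 −0.70 ± 0.16, edgeR adjusted p = 0.00484). In F08H9.4 there were 18, 22 and 25 reads under the bcat-1 RNAi label, against 7, 4 and 12 reads under the control label (log2 1.18 ± 0.35, edgeR adjusted p = 0.0164), a call lost without control replicate 1 or 2 and with DESeq2 (adjusted p = 0.0674, 0.0613 and 0.0923). Its exons overlap srz-97, which was called higher too (log2 1.36, adjusted p = 0.00943). The call of ZK1128.7 (log2 0.64 ± 0.24, edgeR adjusted p = 0.0454) was lost without any one of the libraries except control replicate 3 (adjusted p 0.0807 to 0.167). Of the hsp-16 copies, hsp-16.1, hsp-16.11 and hsp-16.49 gave log2 values of 0.01, 0.06 and 0.54, and hsp-17 gave −0.05, none of them called. Exons of hsp-17 overlap F52E1.14 on the other strand, which had up to 8884 reads in a library. F52E1.14 was itself called lower (log2 −0.88, edgeR adjusted p = 0.000447), and without strand the reads of the overlap cannot be told apart.

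Among HSF-1 and its regulators none of 5 was called higher and 2 were called lower (median log2 −0.21, and 0.05 with library size only). Over all tested genes 36% were called higher and 25.6% lower. Without control replicate 1 and bcat-1 RNAi replicate 3 together 4 were lower. The factor gene hsf-1 had 128, 124 and 100.1 CPM under the bcat-1 RNAi label, against 176, 204 and 180 CPM under the control label (log2 −0.67 ± 0.12, edgeR adjusted p = 0.00117), a fall that held its call under each scaling. By mean level hsf-1 lies at the lower end of the highest decile (151 CPM and above), where 65.1% of tested genes were called lower. The other fall was that of ddl-2, which binds HSF-1 in an inhibitory complex (log2 −0.75, edgeR adjusted p = 0.0483). It was not called with upper quartile scaling or library size only, nor without control replicate 1 or 2 (adjusted p = 0.0927, 0.147, 0.0873 and 0.144), and bcat-1 RNAi replicate 3 stood at 7.504 CPM beside 18.9 and 18.4 CPM in replicates 1 and 2. The inhibitor hsb-1 (log2 −0.21, adjusted p = 0.0598) and daf-16 (log2 −0.13, adjusted p = 0.235) did not pass the test. With DESeq2 size factors, with DESeq2, without bcat-1 RNAi replicate 3, and without it and control replicate 1 together, hsb-1 was called lower (adjusted p = 0.0233, 0.0307, 0.024 and 0.0436), whereas with library size only its log2 value was 0.047 and not called (adjusted p = 0.623). The sign of daf-16 turned with upper quartile scaling and library size only (log2 0.016 and 0.13, adjusted p = 0.854 and 0.123).

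The cytosolic Hsp70, Hsp90 and Hsp40 partners gave calls both ways. Of 12 genes 6 were called lower and 3 higher, with a median log2 of −0.35, and with library size only 3 were lower and 3 higher. Over all tested genes 25.6% were called lower and 36% higher. Heat-inducible Hsp70 genes led the rises. F44E5.4 had 22.97, 23.8 and 45.8 CPM under the bcat-1 RNAi label, against 6.19, 6.06 and 15.4 CPM under the control label (log2 1.74 ± 0.39, edgeR adjusted p = 0.00471), and its near-identical copy F44E5.5 followed at log2 1.75 (adjusted p = 0.00247). F44E5.4 took 48.4% to 51.6% of their joint reads. Whether a read came from one copy or the other was not tested, so they may not be 2 independent results. Another inducible Hsp70 gene, hsp-70, had 3.18, 3.68 and 5.65 CPM under the bcat-1 RNAi label, against 5.99, 3.603 and 6.77 CPM under the control label, and was not called (log2 −0.40, adjusted p = 0.238). Constitutive partners were among the falls: the exchange factor hsp-110 (log2 −0.72, adjusted p = 0.00201), the Hsp70 to Hsp90 adaptor sti-1 (log2 −0.66, adjusted p = 0.000477) and the main Hsp70 hsp-1 (log2 −0.62, adjusted p = 0.0071). In the highest decile of level, which holds hsp-110 and hsp-1 (151 CPM and above), 65.1% of tested genes were called lower.

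In other compartments 3 of 4 chaperones were called lower and none higher (median log2 −0.54, and 2 of 4 with library size only), among them the mitochondrial hsp-60 (log2 −1.002, edgeR adjusted p = 0.000286) and hsp-6 (log2 −0.68, adjusted p = 0.0133, and 0.0591 without control replicate 2). All 4 lie in the highest decile of level (151 CPM and above), where 65.1% of tested genes were called lower (median log2 −0.40). Of 10 targets that DAF-16 raises 2 were called higher and none lower (median log2 0.07, and −0.06 with DESeq2 size factors), and with library size only 4 were higher. For both lists, the shares over all tested genes were 36% higher and 25.6% lower. The metallothionein mtl-1 had 122, 113 and 121 CPM under the bcat-1 RNAi label, against 41.3, 30.4 and 33.0 CPM under the control label (log2 1.77 ± 0.12, edgeR adjusted p = 9.82e-06). The superoxide dismutase sod-3, a standard DAF-16 reporter, had 1.79, 2.26 and 1.86 CPM under the bcat-1 RNAi label, against 2.16, 2.29 and 1.67 CPM under the control label, and was not called (log2 −0.04 ± 0.20, adjusted p = 0.861). The second call, nnt-1 (log2 0.61, adjusted p = 0.0155), was lost without bcat-1 RNAi replicate 2 or control replicate 2 (adjusted p = 0.0719 and 0.0638).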

How the data were processed

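Counts and RPKM were deposited by the authors for 6 libraries. Per the labels and the methods of the study, TruSeq libraries, which do not record strand, were read as 50-base single reads and mapped with TopHat2 2.0.6 to WBcel235. The authors used featureCounts to assign uniquely mapped reads to genes and deposited the counts without normalisation. Its version is not given in the sources used here. The deposited RPKM values equalled count over exon length and library total, with an implied length that was a whole number (tolerance 0.01 base) in 100% of the detected genes. Library totals were 32784443 to 44137496 reads. Replicates were numbered within a group as names only.

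Genes were filtered with filterByExpr, scaled by TMM and tested with edgeR 4.0.16 in R 4.3.3 (quasi-likelihood test, two-sided, group as the only term), with Benjamini-Hochberg adjustment over all 16391 tested genes. The fit was tested on simulated counts first. DESeq2 1.42.0, limma 3.58.1 (voom, and log2(RPKM + 1) or log2(RPKM + 0.1)), other scalings and filters, summed hsp-16 copies and left-out libraries were the alternatives. Mean ± SD is over 3 libraries, and ± beside a log2 fold change is its standard error, taken as the log2 value over the square root of the F statistic. Profiles were compared as log2 CPM (prior count 2).

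All 10 members are named, with bcat-1, and for each further list up to the 2 largest rises and falls among called genes, while hsb-1, daf-16, hsp-70, hsp-1, col-19, med-1, sod-3, overlapping genes and the uncalled family genes were named after their values were seen. Members, lists and tests were chosen with earlier results of these data known. Symbols were those of the count table, and hsp-110 was matched through RefSeq. The symbol opt-2 of the intestine list had no match. Ensembl release 115 (WBcel235), which held 46183 of the 46589 identifiers (99.13%), gave positions and overlaps. A planned count of uniquely placed 50-base windows and a planned promoter motif search were not run, and no sequence was used here.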

Additional observations from a re-analysis of the deposited data

How the results depend on the processing

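Under all 17 alternatives hsp-12.6, hsp-12.3 and sip-1 kept their direction and their call, and hsp-16.48 stayed uncalled with a positive value. The members called higher numbered 2 to 4, and 2 to 3 when 1 library at a time was left out, while 1 was lower each time. The count of lower members was 2 only without control replicate 1 and bcat-1 RNAi replicate 3 together. All tested genes called numbered 7965 to 10715 (10096 as reported), and 8338 to 9956 when 1 library was left out. The log2 value of bcat-1 ran from 0.19 to 0.79 when 1 library was left out. The log2 differences of the ratios ran from 0.17 to 0.35 for hsp-16.2 over hsp-16.41 and from 0.87 to 1.55 for hsp-12.6 over hsp-12.3 when 1 library was left out.

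Signs turned for uncalled members. The value of hsp-16.41 was 0.080 with upper quartile scaling, 0.20 with library size only, 0.016 at 1 CPM in 3 libraries, and 0.070 and 0.065 in limma on RPKM plus 1 and plus 0.1, and its range when 1 library was left out was −0.58 to 0.17. That of hsp-43 was 0.018, 0.13, 0.12 and 0.12 in the same order without the 1 CPM setting. That of hsp-16.2 ranged from −0.37 to 0.47 when 1 library was left out and was −0.53 without control replicate 1 and bcat-1 RNAi replicate 3 together. The cause was not tested. No fit for hsp-12.1 could be had at 1 CPM in 3 libraries, since it fell below that filter, and counts of 3 to 19 reads limit it everywhere. No paired analysis was run. The library numbers in the labels alternate between control and bcat-1 RNAi, but the labels name no pairs. Whether libraries with consecutive numbers belong together was not tested.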
